A study of Homo sapiens with 6 samples.

Results

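The 10 genes described here encode amino acid carriers of the plasma membrane, 7 of the SLC7 family with the SLC3A2 subunit and 2 glutamine carriers, SLC1A5 and SLC38A2. They were chosen by gene symbol, as a list made with earlier results of these data known. They are 10 of the 32357 genes counted, and all 10 were among the 20144 that passed the expression filter. RNA was sequenced from 786-O and A-498, 2 established human clear cell renal cell carcinoma lines grown in RPMI-1640 with fetal bovine serum. Every culture had received a retroviral short hairpin from virus made in HEK293T, an embryonic kidney line, followed by puromycin, so the controls carried a virus and the selection as well. The hairpins were a non-targeting control, ZNF395 hairpin 1 and ZNF395 hairpin 3, the last pair directed against the zinc finger gene ZNF395. There was 1 library per line and construct, 6 in all, and repeat cultures were not analysed here. A p-value therefore measures only the spread that a model leaves between these 6 libraries, with the lines standing in as replicates of a construct.

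Cells take up amino acids through carriers of several families. Most SLC7 proteins are light chains that reach the membrane only when joined to a heavy chain, usually SLC3A2 (4F2hc, CD98), while SLC7A1 and SLC7A2 carry cationic amino acids by themselves. Several of these genes are textbook targets of ATF4, which drives the integrated stress response, and SLC7A11 is also a target of NRF2 (gene NFE2L2), the regulator of antioxidant genes.

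Totals ran from 77534125 to 99147218 counts per library. Levels are given as CPM, the count of a gene scaled to a common library size after TMM scaling. Triplets of values run in the order non-targeting control, hairpin 1, hairpin 3. Of the control level of ZNF395, hairpins 1 and 3 left 25.6% and 14% in 786-O, and 21.4% and 21% in A-498. Of 14 renal carcinoma and tubule markers, 10 exceeded 1 CPM in every library. The hypoxia marker CA9 reached 1.68 CPM at most. None of 6 immune markers exceeded 1 CPM in any library, and no counts are listed for CD3E or the endothelial marker PECAM1. Summed endothelial markers ran from 0.243 to 2.35 CPM and fibroblast markers from 6.82 to 41.4 CPM. Summed markers associated with HEK293 cells ran from 200 to 444 CPM, most of it the neurofilament gene NEFL.

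The 10 transporters differed by orders of magnitude in level. Divided by the exon length of the gene, the highest in both lines was SLC7A5 (LAT1, the exchanger of large neutral amino acids), with a median over constructs of 199 CPM per kb in 786-O and 147 in A-498. Its heavy chain SLC3A2 followed with 68.8 and 75.5 CPM per kb, then SLC1A5 with 54.2 and 53.6. Ranges here run over the 3 constructs of a line, so an overlap can reflect a difference between constructs. SLC7A5 did not overlap SLC3A2 in either line, whereas the ranges of SLC3A2 and SLC1A5 overlapped in both. SLC3A2 was above SLC1A5 in the controls (68.8 against 54.2 CPM per kb in 786-O, 75.5 against 46.6 in A-498) and with hairpin 1. With hairpin 3 it was below SLC1A5, at 136 against 162 in 786-O and 101 against 111 in A-498. SLC38A2 and SLC7A1 came next in 786-O, at 34.9 and 20.9 CPM per kb. The range of SLC38A2 overlapped that of SLC1A5 in each line, although SLC38A2 was the lower in every library. SLC7A7, SLC7A11 and SLC7A6 lay at 6.37, 5.14 and 3.88 CPM per kb there. The ranges of SLC7A7 and SLC7A11 overlapped in 786-O, as did those of SLC7A11 and SLC7A6, with SLC7A11 above SLC7A6 for each construct. The lowest in 786-O were SLC7A2 (0.304 CPM per kb) and SLC7A8 (0.0703 CPM per kb), which did not overlap. In A-498, SLC7A11 stood higher in the order, at 34.2 CPM per kb, overlapping SLC38A2 at 28.7. SLC7A1 followed at 15 CPM per kb, SLC7A7 at 5.68, SLC7A6 at 4.36, SLC7A8 at 0.682 and SLC7A2 at 0.363. Of these last 4 genes, SLC7A7 and SLC7A6 overlapped, and so did SLC7A8 and SLC7A2.

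**Figure D1:**
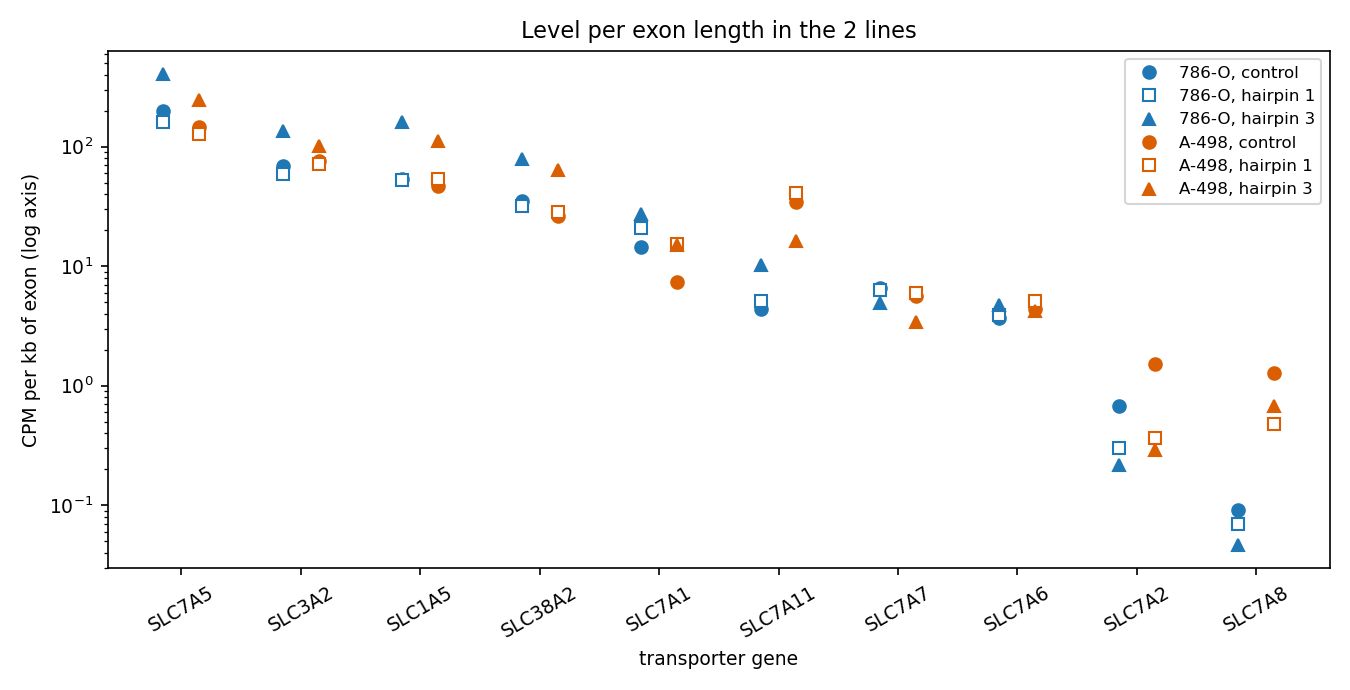
Level of each transporter per kilobase of exon (CPM per kb, log axis) in the 3 libraries of each line. SLC7A5 is at the top in both lines, SLC7A8 and SLC7A2 are at the bottom, and SLC7A11 lies higher in A-498 (16.2 to 41 CPM per kb) than in 786-O (4.38 to 10.3).

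The cationic carriers SLC7A1 (CAT1) and SLC7A2 (CAT2), which bring in arginine, lysine and ornithine, differed from control in opposite directions with both hairpins. SLC7A1 measured 112, 161 and 212 CPM in 786-O. The A-498 libraries held 57.3, 118 and 116 CPM of SLC7A1. All 4 knockdown libraries lay above both controls. The ratio to the control of the same line was 144% (95% counting interval 140 to 148%) and 190% (185 to 195%) in 786-O, and 206% (200 to 213%) and 202% (196 to 209%) in A-498. Counting intervals cover counting error only. SLC7A2 went the other way, with 5.32, 2.4 and 1.73 CPM in 786-O and 11.9, 2.87 and 2.31 CPM in A-498. The 4 knockdown libraries held 130 to 230 counts of SLC7A2 against 421 and 1191 in the controls, without overlap. SLC7A1 was the more abundant of the pair in every library. In the authors' deposited table, which pools the hairpins, the log2 fold change of knockdown over control was 0.77 for SLC7A1 (standard error 0.189) and -1.39 for SLC7A2 (standard error 0.242), given here as a description because that contrast was known when the list was made.

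**Figure D2:**
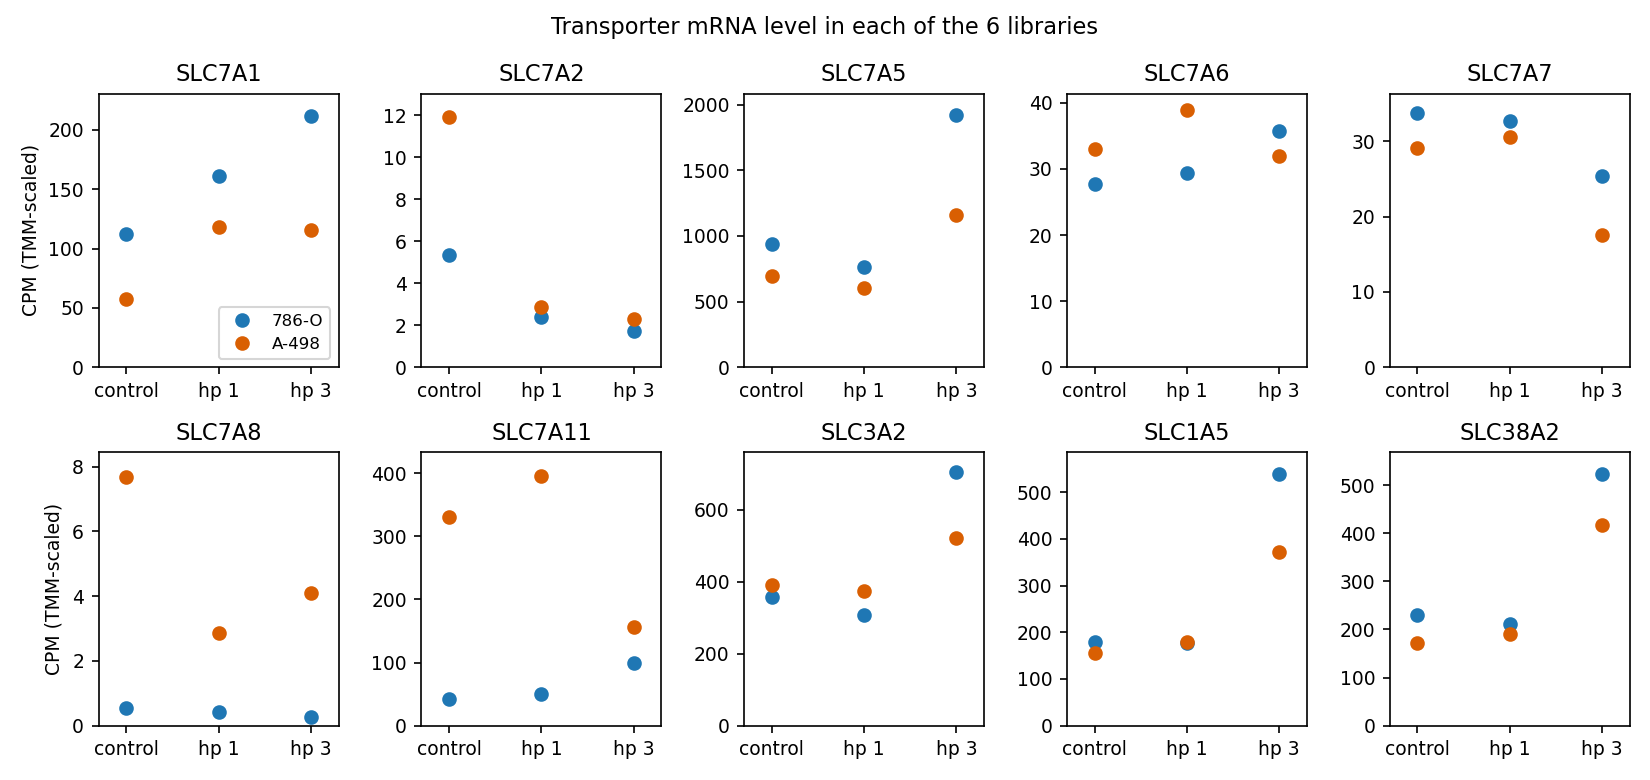
Level of each transporter (CPM, each panel with its own axis) in the control, hairpin 1 (hp 1) and hairpin 3 (hp 3) libraries of both lines, 1 point per library. SLC7A1 is above and SLC7A2 below control in all 4 knockdown libraries, while SLC7A5, SLC3A2, SLC1A5 and SLC38A2 are high with hairpin 3 alone.

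The mRNAs of SLC7A5 and SLC3A2 were high in the hairpin 3 libraries only. Their proteins form a heterodimer that exchanges glutamine for leucine and other large neutral amino acids, and protein was not measured. SLC7A5 measured 942, 762 and 1920 CPM in 786-O and 697, 606 and 1160 CPM in A-498. SLC7A5 was thus below control with hairpin 1 in each line and above it with hairpin 3. SLC3A2 measured 356, 306 and 704 CPM in 786-O and 391, 374 and 522 CPM in A-498. For both genes the 2 hairpin 3 libraries lay above the other 4. Read counts of SLC7A5 could include reads of its near copy SLC7A5P1, which itself held at most 0.828 CPM.

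SLC7A8 (LAT2), the related light chain for neutral amino acids, had only 43, 33 and 21 counts in 786-O (0.544, 0.421 and 0.28 CPM). A-498 had more, 766, 228 and 400 counts, or 7.68, 2.85 and 4.09 CPM. SLC7A8 was below the control of its line in all 4 knockdown libraries, although the interval of hairpin 1 in 786-O (49.2 to 122% of control) included no difference.

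The y+LAT light chains SLC7A7 and SLC7A6, which exchange cationic for neutral amino acids, moved less. SLC7A7 measured 33.8, 32.7 and 25.4 CPM in 786-O and 29.1, 30.6 and 17.6 CPM in A-498. The hairpin 3 libraries were the lowest of each line, at 75.2% and 60.5% of control. SLC7A6 measured 27.8, 29.4 and 35.7 CPM in 786-O and 33.1, 38.9 and 31.9 CPM in A-498, a narrow range with no common direction for hairpin 3. SLC7A6 shares 17321 bp with SLC7A6OS on the other strand, and whether strand was used in counting is not stated.

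SLC7A11 (xCT), the cystine and glutamate exchanger that feeds glutathione synthesis, split between the lines with hairpin 3. SLC7A11 measured 42.2, 49.6 and 99.8 CPM in 786-O and 330, 395 and 156 CPM in A-498. Hairpin 3 thus gave the highest value of 786-O, at 236% of control (227 to 246%), and the lowest of A-498, at 47.3% (46.4 to 48.2%). With hairpin 1 the lines were alike in direction, at 118% and 120% of control. Whether SLC7A11 answered hairpin 3 differently in each line could not be tested with 1 library per line and construct. The antisense gene SLC7A11-AS1, which overlaps SLC7A11 by 14081 bp, held 28 to 297 counts, against 3338 to 32938 for SLC7A11.

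SLC1A5 (ASCT2) and SLC38A2 (SNAT2), carriers of glutamine and other small neutral amino acids, were high with hairpin 3 in both lines. SLC1A5 measured 180, 176 and 539 CPM in 786-O and 155, 179 and 371 CPM in A-498. The hairpin 3 libraries were at 299% and 239% of control, the hairpin 1 libraries at 97.7% and 115%. SLC38A2 measured 230, 211 and 524 CPM in 786-O and 172, 190 and 418 CPM in A-498. For both genes the hairpin 3 libraries lay above all others.

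**Figure D3:**
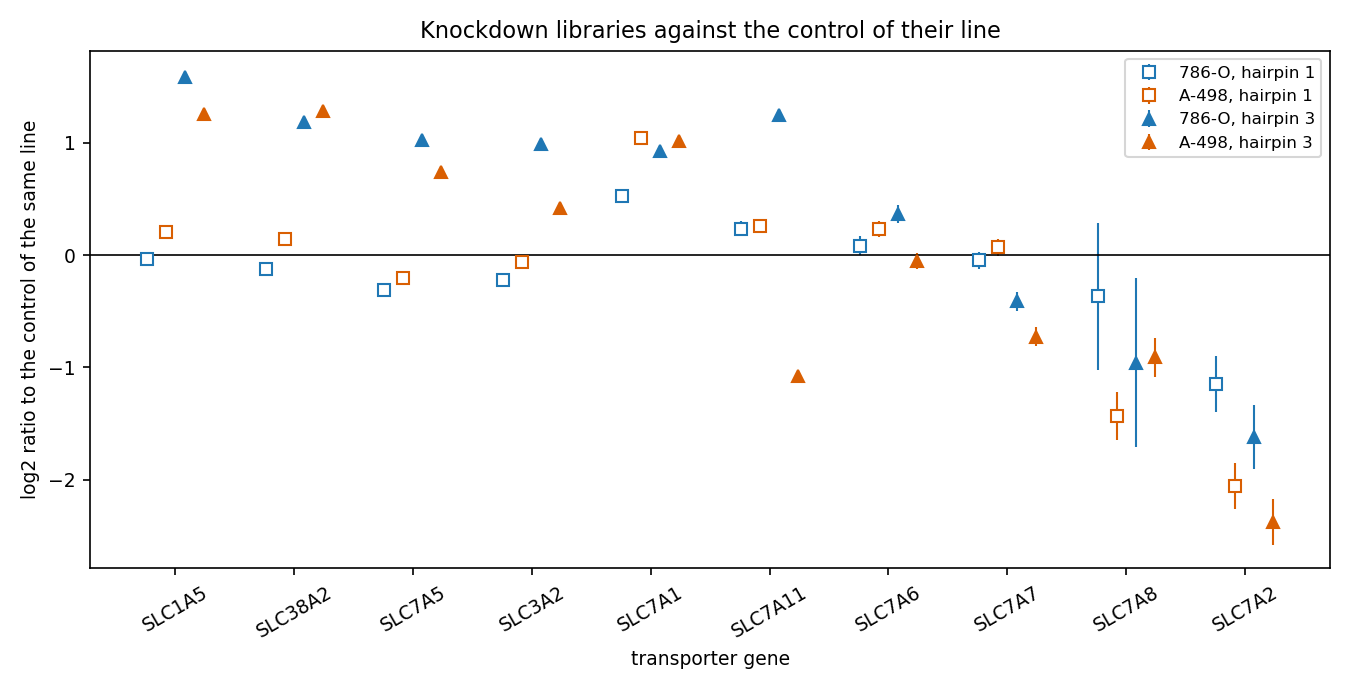
Ratio of each knockdown library to the control of its line (log2) for the 10 transporters, with bars for the 95% counting interval. SLC7A11 with hairpin 3 is at 1.24 in 786-O and -1.08 in A-498, and SLC7A2 is below 0 in all 4 libraries.

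Promoter sequence is shown for 3 members that were high with hairpin 3, to show the letters of the stress-response motifs searched for. The SLC1A5 stretch was picked because it holds a TGATGNAA match, so it does not represent the other starts of the gene. Sequences are the minus strand of GRCh38.p14 from RefSeq, 5′ to 3′. Those of SLC7A1 and SLC7A5 are the 250 bases before the start of the gene (chr13:29595689-29595938 and chr16:87869508-87869757), and that of SLC1A5 is a stretch of 30 bases upstream of an alternative start (chr19:46784893-46784922). Capitals mark matches, on either strand, to the antioxidant response element TGACNNNGC, to the hypoxia response element (ACGTG or GCGTG) or, in SLC1A5, to the CEBP-ATF response element TGATGNAA.
SLC7A1: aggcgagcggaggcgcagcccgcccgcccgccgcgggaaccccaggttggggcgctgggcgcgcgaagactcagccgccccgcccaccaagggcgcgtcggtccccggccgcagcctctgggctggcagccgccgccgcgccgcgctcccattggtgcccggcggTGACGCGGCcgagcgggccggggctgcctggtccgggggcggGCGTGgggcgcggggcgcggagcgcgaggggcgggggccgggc
SLC7A5: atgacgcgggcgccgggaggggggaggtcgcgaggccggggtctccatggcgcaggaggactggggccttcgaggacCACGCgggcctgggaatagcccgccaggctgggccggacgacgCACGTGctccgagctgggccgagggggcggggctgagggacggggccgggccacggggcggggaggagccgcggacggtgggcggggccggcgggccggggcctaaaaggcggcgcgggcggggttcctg
SLC1A5: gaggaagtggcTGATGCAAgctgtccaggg
The SLC7A1 window holds an antioxidant match and a hypoxia match, and the SLC7A5 window holds 3 hypoxia matches, of which 2 overlap as a palindrome. The windows of SLC7A1, SLC7A5, SLC38A2, the 3 starts of SLC3A2 and the other 2 starts of SLC1A5 hold no TGATGNAA. For SLC3A2, the window of start 1 holds 1 antioxidant match, that of start 2 holds 2 hypoxia matches and that of start 3 holds 1 hypoxia match. Of those SLC1A5 starts, the window of start 2 holds an antioxidant match and 2 hypoxia matches, and that of start 1 holds no match to the 3 motifs. Among 35116 promoter windows of this length, 3.14% hold TGATGNAA, 10.9% TGACNNNGC and 43.2% a hypoxia match. A match is a description of the letters, not a binding site.

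Hairpin 3 against hairpin 1 sets no control library in the contrast, but hairpin 3 libraries were among the earlier results in view when the list was made. The values are therefore a description, with no p-value, and nothing is read from the count. The edgeR log2 fold change was 1.34 for SLC1A5 (SE 0.161), 1.22 for SLC38A2 (SE 0.129), 1.14 for SLC7A5 (SE 0.148) and 0.85 for SLC3A2 (SE 0.19). These are 2.52-, 2.33-, 2.2- and 1.8-fold differences, each in the same direction in both lines. The 4 genes were past the threshold of an adjusted p under 0.05, beside 4.09% of all genes tested that were higher, and 0 of 10 members were lower, beside 5.4%. The y+LAT chain SLC7A7 (-0.58, SE 0.151) was not past it with edgeR and was with DESeq2 and limma-voom, which called 19.2% and 11.5% of all genes. The cationic carriers SLC7A1 (0.18, SE 0.156) and SLC7A2 (-0.40, SE 0.271) were not past it. Without the 786-O hairpin 1 library the count of 4 fell to 0.

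Hairpin 1 against control called none of the 10, and 0.149% of all genes in either direction. At an unadjusted p under 0.05 edgeR gave 3 members, SLC7A2, SLC7A1 and SLC7A8, beside 2106 of all 20144 genes. DESeq2 called 2, SLC7A1 and SLC7A2, beside 3.03% of all genes, and limma-voom 0, beside 0.184%. The edgeR log2 fold change was 0.79 for SLC7A1 (SE 0.157) and -1.62 for SLC7A2 (SE 0.269). Both genes also passed with edgeR when either hairpin 3 library was left out, whether that of 786-O or of A-498. All of this is a description, and nothing is read from these calls. The pooled contrast, which includes the hairpin 1 libraries and the same controls, was known when the list was made.

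Hairpin 3 against control is described without reading a result from it, since SLC7A1 in that contrast was known when the list was made. It uses the same control libraries as hairpin 1 against control. The edgeR log2 fold change was 1.43 for SLC1A5 (SE 0.161), 1.23 for SLC38A2 (SE 0.129), 0.97 for SLC7A1 (SE 0.157) and 0.88 for SLC7A5 (SE 0.147). It was -2.02 for SLC7A2 (SE 0.273). These were the 5 members past the threshold, 4 higher and 1 lower, beside 2.55% and 4.16% of all genes. SLC3A2 (0.71, SE 0.189), SLC7A7 (-0.56, SE 0.151) and SLC7A8 (-0.90, SE 0.317) were not past it with edgeR. DESeq2, and edgeR without the filter on low counts, also placed SLC3A2 and SLC7A7 past the threshold. These fits called 16.9% and 8.2% of all genes. SLC7A11 had the largest standard error of the 10, 0.546. Without the A-498 control only SLC1A5 remained past the threshold, and without the 786-O control SLC1A5, SLC38A2 and SLC7A2.

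With both hairpins pooled, the comparison named in the series' design, edgeR called 0 of 10 members and 0% of all genes. At an unadjusted p under 0.05 it gave 3 members and 1013 genes in all. DESeq2 called 2 members, SLC7A1 and SLC7A2, beside 0.443% of all genes, and limma-voom 0, beside 0.00496%. The pooled edgeR log2 fold change was 0.88 for SLC7A1 (SE 0.176) and -1.81 for SLC7A2 (SE 0.278). For SLC1A5 it was 0.91 with an SE of 0.487, and for SLC38A2 0.75 with an SE of 0.441, in a model whose spread includes the difference between the hairpins.

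The lines differed most in SLC7A8 and SLC7A11. Over all constructs SLC7A8 was 11.2-fold higher in A-498 (log2 3.48, SE 0.312, adjusted p = 0.000319, edgeR), and SLC7A11 was 4.73-fold higher (log2 2.24, SE 0.461, adjusted p = 0.00795, edgeR). SLC7A1 was lower in A-498 (log2 -0.77, SE 0.161, adjusted p = 0.00848, edgeR), and did not pass without the 786-O control (adjusted p = 0.08, edgeR) or the A-498 control (adjusted p = 0.0741, edgeR). That is 2 of 10 members higher, beside 25.7% of all genes, and 1 of 10 lower, beside 21.4%, so the share of members is near or below that of the table. With the hairpin as a block, 6 of 10 members passed, adding SLC38A2, SLC7A2 and SLC7A5, beside 61.9% of all genes. An unequal knockdown response of the lines was called for 0 of 10 members and 0% of all genes by edgeR. No member had an unadjusted p under 0.05 there, against 159 of all genes, and SLC7A11 had a log2 difference of -1.08 (SE 0.9, adjusted p = 1, edgeR).

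Genes that work with these carriers were taken from 11 lists made with earlier results known, and none is independent evidence. Some genes stand in more than 1 list. The counts against hairpin 1 stand beside 4.09% of all genes higher and 5.4% lower. Against hairpin 1, 5 of 20 integrated stress response genes rose with hairpin 3 and none fell (median log2 0.64, against -0.008 for all genes). They include SESN2, an mTORC1 inhibitor (1.21, SE 0.157), and ATF4 (1.10, SE 0.162), again as a description with no p-value. ATF4 measured 439, 406 and 926 CPM in 786-O and 258, 348 and 705 CPM in A-498. Of 21 amino acid synthesis genes 8 rose and 2 fell (median 0.37), among them CTH, which makes cysteine (1.31), PSAT1 of serine synthesis (1.84) and ASNS, asparagine synthetase (1.83). Of 20 cytosolic tRNA synthetases 5 rose, with AARS at 0.99 and MARS at 0.79, and 3 fell, with FARSB at -1.03. Of 12 other plasma membrane carriers 2 rose, SLC6A9 for glycine (2.56) and SLC36A1 (0.61), and SLC43A2, a carrier of large neutral amino acids, fell (-1.49). None of the 10 lysosomal carriers and none of 6 neighbours or near copies of the members passed with edgeR. Of these, 3 and 1 had an unadjusted p under 0.05, beside 5632 of all 20144 genes. DESeq2 and limma-voom each called 1 lysosomal carrier lower and no neighbour, beside 19.2% and 11.5% of all genes in either direction.

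The remaining lists bear on SLC7A11 and on hypoxia signalling. Of 12 glutathione and cystine genes 3 rose with hairpin 3 over hairpin 1 (CTH, CHAC1 and SLC3A2) and 1 fell. That list includes the members SLC7A11 and SLC3A2, and CTH and CHAC1 were already counted in the lists above. Of 16 NRF2 pathway genes none rose and 1 fell, and NFE2L2 itself stayed between 152 and 257 CPM over the 6 libraries. Of 22 amino acid sensing genes upstream of mTORC1, 3 rose and 2 fell. Of 8 HIF genes 3 rose, among them EPAS1, which encodes HIF-2α (1.25, SE 0.132). EPAS1 measured 158, 122 and 259 CPM in 786-O and 115, 78.4 and 208 CPM in A-498. With hairpin 1 against control edgeR called no gene of the 11 lists. An unadjusted p under 0.05 (edgeR) was found for 3 of the 8 HIF genes and 6 of the 20 stress response genes. It was also found for 4 of the 20 tRNA synthetases, 2 of the 10 lysosomal carriers and 1 of the 12 glutathione and cystine genes. All stand beside 2106 of all 20144 genes. DESeq2 called 1 gene lower in each of 4 lists, beside 3.03% of all genes in either direction, and limma-voom none. In A-498 against 786-O, the line with more SLC7A11, 14 of 16 NRF2 pathway genes were higher and none lower (median 1.77), beside 25.7% of all genes higher and 21.4% lower. Their part in the level of SLC7A11 was not tested.

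**Figure D4:**
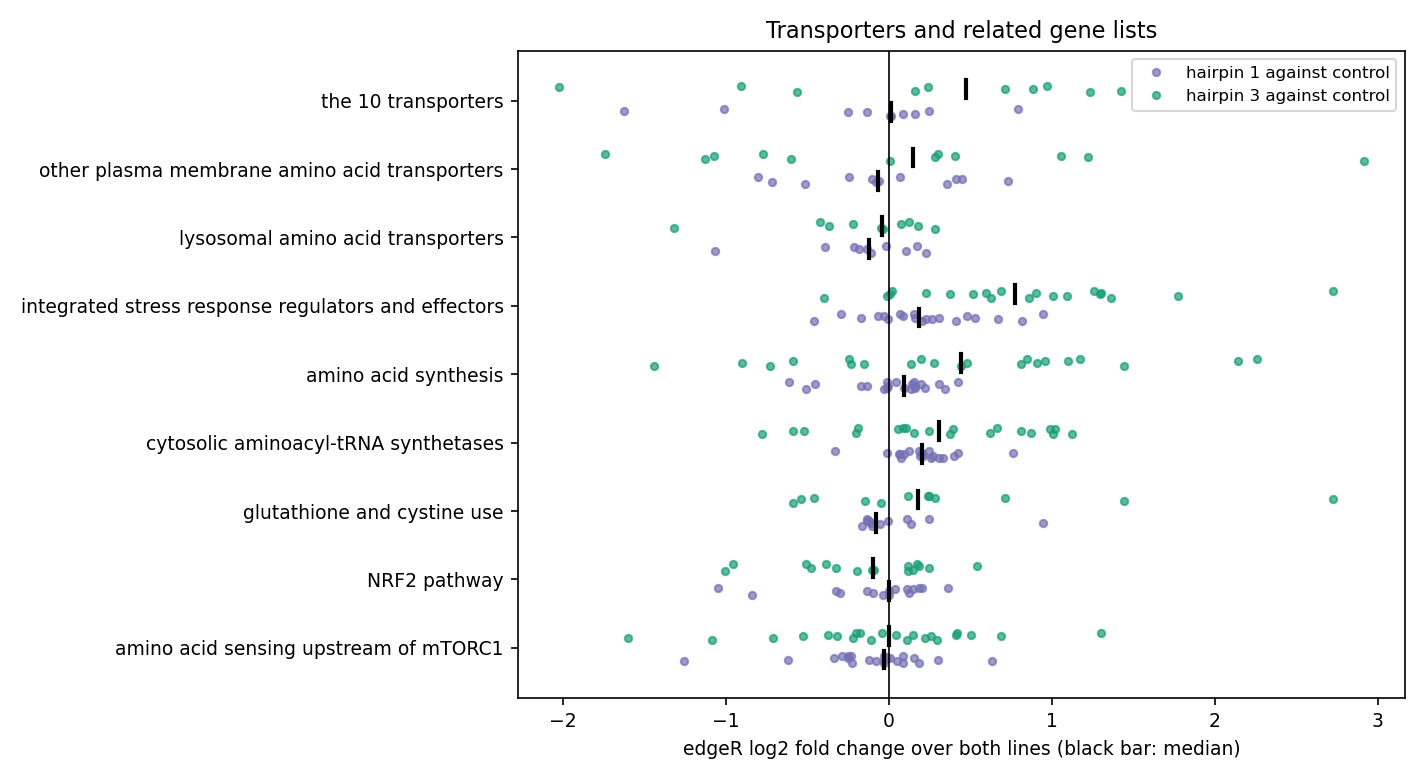
The edgeR log2 fold changes of hairpin 1 and of hairpin 3 against control over both lines (x axis), 1 point per gene, for the 10 transporters and 8 of the lists, with a black bar at each median. With hairpin 3 the medians are 0.48 for the transporters and 0.78 for the integrated stress response list, and with hairpin 1 they are 0.011 and 0.19; both comparisons share the control libraries.

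For the 8 carriers with a mean of at least 5 CPM, which leaves out SLC7A2 and SLC7A8, the most similar genes were found by the Euclidean distance over the 4 log2 ratios of a knockdown library to its control, among 11026 genes averaging 5 CPM or more. SLC1A5 was nearest to CTH (distance 0.288) and SLC38A2 to BBC3, a p53 target (0.17). SLC7A5 was nearest to ICK (0.175), SLC3A2 to KLHL42 (0.208) and SLC7A1 to NCOA7 (0.238). SLC7A7 and SLC7A6 had closer companions, FGF2 (0.0451) and TPRKB (0.0617). Of these 8, SLC7A11 had the most distant, FGF5 at 0.598, with ratios of 1.00 and -1.11 for FGF5 with hairpin 3 in 786-O and A-498. These distances are descriptions over 4 ratios that share 2 control libraries.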

How the data were processed

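RNA of 6 libraries was analysed. The authors deposited whole-number read counts per gene symbol, without normalization. Per the file headers, the authors' table also gives the mean signal of a gene, the Wald score, the log2 fold change with its error, and a raw and an adjusted p-value. STAR, DESeq2, hg19 and hs37d5 are named in the submitters' processing notes. The counter, the annotation and any use of strand were not given in the sources used here. Therefore values of overlapping genes are uncertain. The sign of the authors' deposited log2 fold change, control over knockdown, was read against the counts. No column was left unlisted (0).

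The main test was edgeR 4.0.16 (R 4.3.3) on the counts (TMM scaling, quasi-likelihood F tests, Benjamini-Hochberg adjustment over all 20144 genes, call at an adjusted p under 0.05), and the fit with line and construct was tested on simulated data with genes changed by hairpin 3. Models held line and construct (2 residual degrees of freedom), line and knockdown status (3), or 4 means (2). DESeq2 1.42.0, limma 3.58.1 (voom), RLE scaling, no filter on low counts, the hairpin as a block and leaving out each library were alternatives. Standard errors came from the F statistic. Exon lengths and overlaps came from GENCODE 29 (GRCh38), which differs from the authors' build. The members and lists were chosen with earlier results of these data known. All members were named, and at most 3 genes per list and comparison, those with the smallest p, plus ATF4, NFE2L2, EPAS1, HIF1A and ZNF395. A count of 0 allows up to 3 counts.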

Additional observations from a re-analysis of the deposited data

Results flagged for a closer look

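Several carriers had ratios to control of opposite sign in the 2 lines, each from 1 library per line, and none of these differences was tested. With hairpin 3, the log2 ratio of SLC7A11 was 1.241 in 786-O and -1.079 in A-498, and that of SLC7A6 was 0.364 and -0.053. The 95% counting interval of SLC7A6 in A-498 (-0.124 to 0.017) included 0. With hairpin 1, the log2 ratios lay near 0 in both lines: SLC7A7 at -0.047 in 786-O and 0.069 in A-498, SLC1A5 at -0.034 and 0.202, and SLC38A2 at -0.123 and 0.14. The intervals of SLC7A7 with hairpin 1 included 0 in both lines, and that of SLC1A5 in 786-O (-0.068 to 0) reached it. The opposite signs of SLC7A6, SLC7A7 and SLC1A5 are therefore not resolved from counting error. Of the 5 carriers, SLC7A11 with hairpin 3 has the largest gap. HIF1A, which is low in 786-O, went from 347 CPM in the A-498 control to 152 with hairpin 3, and from 8.33 to 8.15 CPM in 786-O. Its part in the split of SLC7A11 was not tested.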

How the results depend on the processing

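The results on members were recomputed with DESeq2, limma-voom and RLE in place of TMM scaling, without a filter on low counts and without each library. The hairpin as a replicate block was run for the pooled, line and line-by-knockdown comparisons, and list counts with DESeq2 and limma-voom only. Members called with hairpin 1 against control went from 0 to 2 with DESeq2 and 2 without the filter, and ranged from 0 to 2 with a library left out. With hairpin 3 against control the 5 ranged from 1 to 7, and with hairpin 3 against hairpin 1 the 4 ranged from 0 to 6. Members called with the hairpins pooled went from 0 to 2 with DESeq2, beside 0.443% of all genes. The hairpin 1 fits with DESeq2 and without the filter called 3.03% and 1.48% of all genes. The 3 members that differed between the lines became 6 with the hairpin as a replicate block, which left the pooled and the line-by-knockdown counts at 0. The share of all genes called between the lines went from 47.2% to 61.9%. The log2 fold change of SLC7A1 with hairpin 3 against hairpin 1 ranged from -0.045, without the 786-O hairpin 1 library, to 0.422, a change of sign. The cause of these changes was not tested. The line-by-knockdown model could not be fitted without a control library. With 21 to 43 counts of SLC7A8 in 786-O, depth limits its ratios there.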

Other observations

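Other SLC7 and SLC3 genes were sparse. Of 7 listed, 6 were in the table and 4 were tested. SLC3A1 (rBAT), the heavy chain of the renal cystine and dibasic amino acid transporter, was lower with hairpin 3 than with hairpin 1 (log2 -2.20, SE 0.293). Its partner light chain SLC7A9, SLC7A10 and SLC7A4 were higher in A-498 than in 786-O (adjusted p = 0.00189, 0.00485 and 0.0076, edgeR). That is 3 of the 4 tested higher and 0 lower, beside 25.7% of all genes higher and 21.4% lower. Of the 12 other plasma membrane carriers tested, 3 were higher in A-498 and 3 lower, beside the same shares of all genes. Among the lower ones, SLC38A5, a glutamine carrier, was 10.4-fold lower in A-498 than in 786-O (log2 -3.38, SE 0.328, adjusted p = 0.000422, edgeR). SLC1A4 (ASCT1), a neutral amino acid carrier and the paralog of SLC1A5, was 5.58-fold lower (log2 -2.48, SE 0.254, adjusted p = 0.000517, edgeR).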
